A study of Homo sapiens with 2 samples.

Results

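Autophagy delivers cytoplasmic material to the lysosome for breakdown. A kinase complex around ULK1 starts the process, a class III lipid kinase complex built on PIK3C3 and BECN1 marks the growing membrane, and ubiquitin-like conjugation reactions attach ATG8 proteins to it. Receptors such as SQSTM1 tie cargo to ATG8, and the closed vesicle then fuses with the lysosome, whose membrane carries the LAMP proteins. p53 is a transcription factor with known links to this pathway, of which the p53-induced lysosomal membrane gene DRAM1 is the textbook example.

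The 44 genes described here are the core autophagy machinery, its receptors and a set of lysosomal genes, chosen by gene symbol, with earlier results of these data known. They were taken from 18417 genes that could be named from the array, and all 44 were measured, by 46 probe sets. By step they comprise 9 initiation genes, 7 lipid kinase genes, 11 conjugation genes, 5 ATG8 genes, 6 receptor genes and 6 lysosome genes. The study concerns p53 and 5-hydroxymethylcytosine in gene regulation and measured total RNA of H1299 cells on 2 Affymetrix arrays, 1 from cells labelled as treated with p53 and 1 from cells labelled as negative control. H1299 is an established human cell line from a non-small cell lung carcinoma and has no p53 of its own, so the cells of both arrays share that background. How p53 was given, for how long, and what the negative control received are not given in the labels. Values are log2 intensities, and every difference is the p53 array minus the negative control array. With 1 array per group there is no replicate error and no test, and a gene is called higher or lower where the arrays differ by at least 2-fold, a rule of size.

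Known p53 targets and markers of cell type served as a check of the labels. CDKN1A, the cyclin-dependent kinase inhibitor gene and classical p53 target, had a log2 intensity of 12.66 in the p53 array, against 9.18 in the control array. MDM2, the p53 ubiquitin ligase gene, had 13.59 in the p53 array, against 10.87 in the control array. The epithelial keratin genes KRT8 and KRT18 and the mesenchymal gene VIM were bright in both arrays, at 12.47 or above. The other 3 epithelial markers, KRT19 (7.28), EPCAM (5.72) and CDH1 (6.10), were equal in both arrays and below the median of all probe sets, 7.38. All 12 measured markers of blood, endothelial cells and fibroblasts lay between 3.38 and 7.26 in the p53 array, with the same limits in the control array, also below that median. The lung lineage markers NKX2-1 and SFTPC were also below that median in both arrays, so these values do not show a lung identity. The third marker of that list, SCGB1A1, had 8.53 in the p53 array, against 7.09 in the control array.

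Of the 44 autophagy genes, 3 lay 2-fold or more above the control in the p53 array and none lay 2-fold or more below it. The 3 were LAMP3, DRAM1 and ATG4D. Among all 18417 genes 5.22% were at least 2-fold higher and 3.70% at least 2-fold lower, so the 6.82% of autophagy genes that were higher is near the background. The autophagy genes were brighter than most, with a median intensity of 9.49 against 7.90 for all genes. Among the 11103 genes whose mean over both arrays was at or above the median probe set, the background was 7.70% higher and 5.67% lower. The median difference of the 44 was 0.00 on the log2 scale, and that of all genes was also 0.00. With genes of identical values in the 2 arrays left out, it was 0.03 for the autophagy genes and -0.07 for all genes. In bulk RNA of this kind, fewer cells expressing a gene and less RNA per cell cannot be told apart.

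Differences smaller than 0.5 in size were about as common among the 44 as among all genes, while identical values were rarer. The median absolute difference was 0.20 for the 44, against 0.10 for all genes and 0.28 for the 11103 brighter genes. The difference was above 0 in 22 of the 44 genes, below 0 in 18, and 4 genes (AMBRA1, ATG4B, MAP1LC3B and SQSTM1) had identical values in the 2 arrays. Those 4 are 9.09% of the 44, against 35.3% of all genes and 15.1% of the 11103 brighter genes. Over all 18417 genes the difference was above 0 in 4950 and below 0 in 6963. Over the 11103 brighter genes it was above 0 in 3807 and below 0 in 5624. Exact ties are common in these values, at 35.9% of probe sets, and their source was not tested. They are therefore not read as a measured lack of change. In 32 genes, or 72.7%, the arrays lay within 0.5 of each other, against 77.3% of all genes and 66.2% of the brighter genes. A scale for these sizes comes from 317 brighter genes with 2 probe sets, whose differences scattered around each other with a standard deviation of 0.11, estimated from the median absolute deviation. It holds no variation between cultures. By this yardstick 15 of the 44 genes (34.1%) had a difference smaller than 0.11 in size, as had 31.4% of the brighter genes. Exact ties make up 4 of those 15 genes, and 1672 of the 3482 brighter genes so counted. The likeness of the shares is therefore not read as a result, and tied probe sets also entered the 0.11. The plot of differences by step shows LAMP3 and DRAM1 standing apart from the other members.

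**Figure D1:**
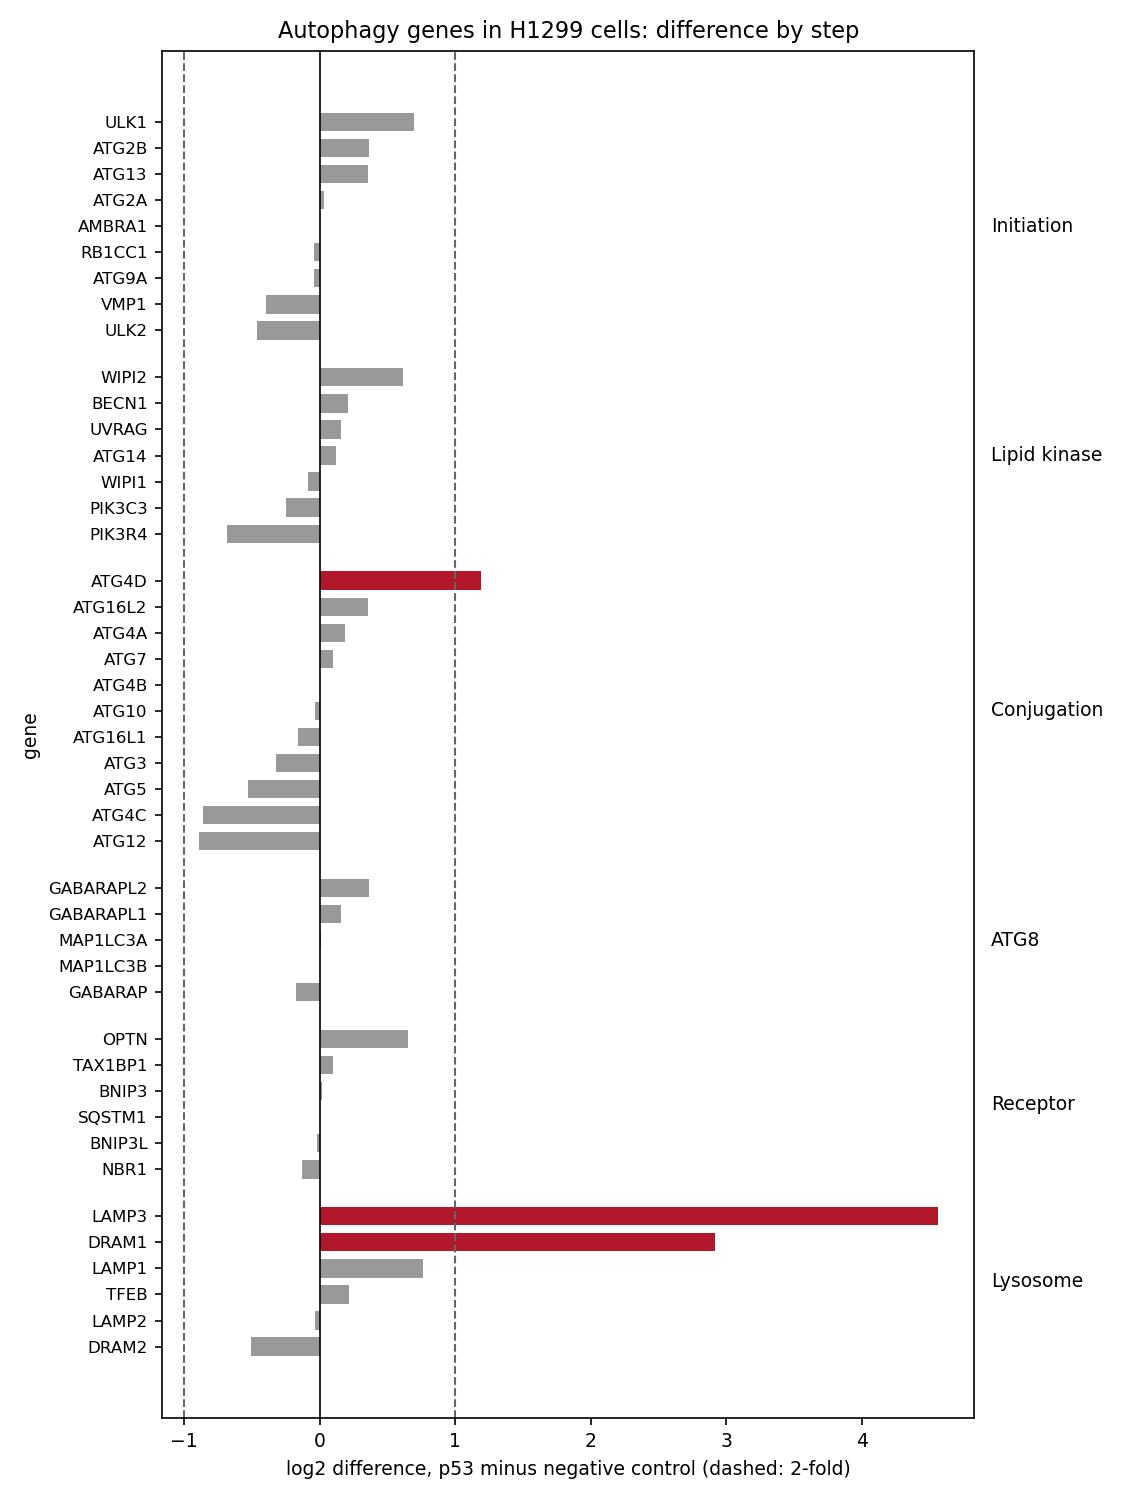
Log2 difference (p53 minus negative control, horizontal axis) of each of the 44 autophagy genes, grouped by step and sorted within it; 1 array per group, so there are no error bars. Dashed lines mark 2-fold, and the red bars are LAMP3 (4.56), DRAM1 (2.92) and ATG4D (1.19), the members past them.

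At the initiation step, no gene of 9 was 2-fold different, and the step's median difference was 0.00. ULK1, the kinase that starts autophagosome formation, had 9.52 in the p53 array, against 8.83 in the control array, a difference of 0.69. Its paralogue ULK2 had 7.10 in the p53 array, against 7.56 in the control array (-0.46), and its p53 value lay below the median probe set. Neither ULK paralogue differed by 2-fold.

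The partners of ULK1 were close in both arrays. ATG13, the adaptor subunit of the ULK1 complex, differed by 0.35 and RB1CC1, its large scaffold, by -0.04. AMBRA1, a regulator that links ULK1 and BECN1, was equal at 8.60 in both arrays. The lipid-transfer genes ATG2A and ATG2B, whose proteins supply the growing membrane, stood at 0.03 and 0.36, and the ATG2B value was matched by its other probe set (0.38). ATG9A, the transmembrane scramblase of autophagy, differed by -0.04. VMP1, an endoplasmic reticulum protein gene of membrane supply, had 12.34 in the p53 array, against 12.73 in the control array, a difference of -0.40.

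Among the 7 lipid kinase genes, differences ran from -0.69 to 0.61 with a median of 0.12, and none reached 2-fold. PIK3R4, the regulatory subunit of the complex (VPS15), had 9.43 in the p53 array, against 10.12 in the control array, the lowest difference of the step. The catalytic subunit gene PIK3C3 differed by -0.25. The remaining subunit genes lay slightly above 0, with BECN1 at 0.21, UVRAG, of the late endosomal form of the complex, at 0.16, and ATG14, of the autophagy form, at 0.12. The WIPI proteins read the lipid that the kinase makes. WIPI2, which recruits ATG16L1, had 9.50 in the p53 array, against 8.88 in the control array, a difference of 0.61, whereas WIPI1 differed by -0.09.

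The conjugation step held the widest spread outside the lysosome, from -0.89 to 1.19 over 11 genes, with a median of -0.04. ATG4D, a cysteine protease of the family that trims ATG8 proteins, had 10.11 in the p53 array, against 8.92 in the control array, a 2.28-fold higher level. It ranked 757 of 18417 genes by difference. Its paralogue ATG4C had 7.77 in the p53 array, against 8.63 in the control array, a difference of -0.86. ATG4A differed by 0.19, and ATG4B, the most active processing enzyme of the family, was equal in both arrays in each of its 2 probe sets. Of the 4 ATG4 genes, ATG4D was the 1 past 2-fold.

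ATG12, the ubiquitin-like protein gene of the pathway, had 8.58 in the p53 array, against 9.47 in the control array. Its difference of -0.89 was the lowest of the 44. ATG5, the protein to which ATG12 is joined, had 9.75 in the p53 array, against 10.28 in the control array (-0.53), and ATG16L1, which binds their conjugate, differed by -0.16. These 3 genes, whose products form the complex that places ATG8 on membranes, all lay below 0 and none was 2-fold lower. ATG16L2, a paralogue of ATG16L1, differed by 0.36. Of the enzymes of the reaction, ATG7, the activating enzyme, differed by 0.10, ATG10, the conjugating enzyme for ATG12, by -0.04, and ATG3, the conjugating enzyme for ATG8, by -0.32.

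The 5 ATG8 genes encode the proteins that coat the autophagosome and are cut and lipidated after translation, so that transcript values do not tell the lipidated form. Their differences ran from -0.17 to 0.37, with a median of 0.01. GABARAPL2 had 12.29 in the p53 array, against 11.93 in the control array (0.37), and GABARAP had 11.89 in the p53 array, against 12.06 in the control array (-0.17). GABARAPL1 differed by 0.15 and MAP1LC3A by 0.01. The probe set named for MAP1LC3B alone read 8.04 in both arrays. A brighter probe set shared with the near-identical gene MAP1LC3B2 read 11.49 in the p53 array, against 11.46 in the control array, and cannot be assigned to either. Both probe sets differed by less than 0.11, but the first is an exact tie and is not read as a measured lack of change.

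The receptor genes were the flattest of the 6 groups, with a median absolute difference of 0.06 and none of 6 past 2-fold. SQSTM1, which encodes the ubiquitin-binding receptor p62, read 11.87 in both arrays, 1 of the exact ties described above. NBR1, a related receptor gene, differed by -0.13 and TAX1BP1 by 0.10. The mitophagy receptor genes BNIP3 and BNIP3L, known hypoxia targets, differed by 0.02 and -0.02. OPTN, which links ubiquitinated mitochondria and bacteria to ATG8, was the exception, with 9.80 in the p53 array, against 9.15 in the control array, a difference of 0.65 that did not reach 2-fold.

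**Figure D2:**
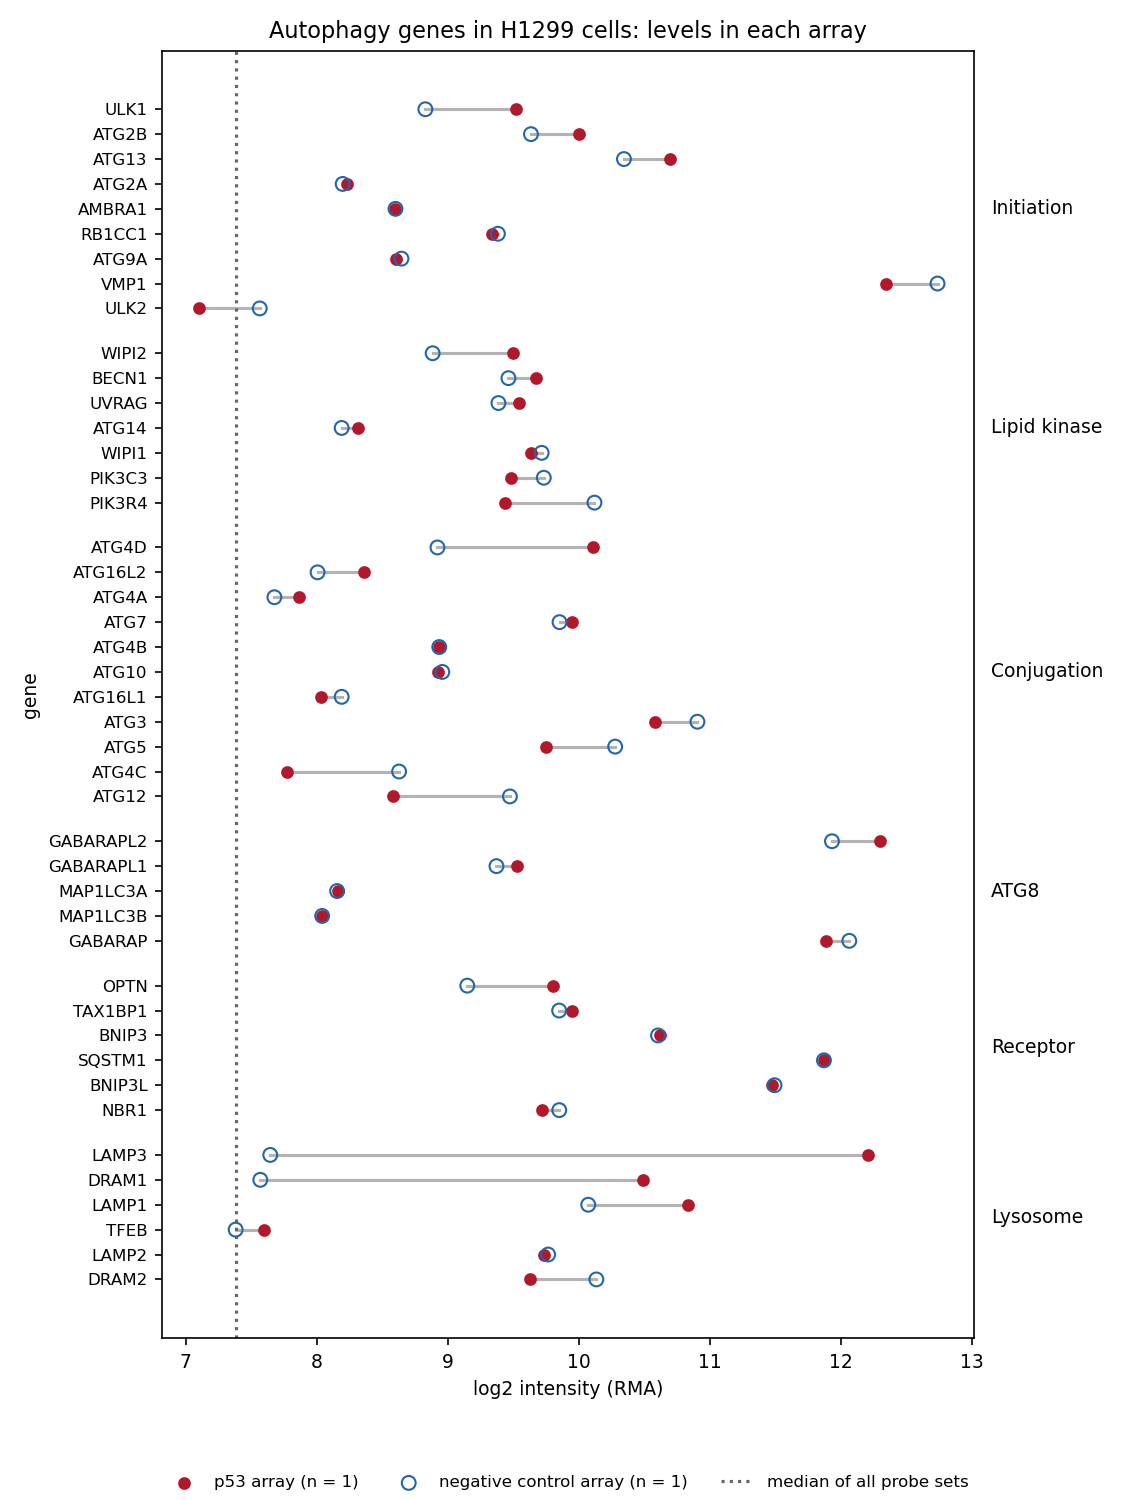
Log2 intensity (horizontal axis) of each autophagy gene in the p53 array (filled red) or the negative control array (open blue), 1 array each, grouped by step; the dotted line is the median of all probe sets, 7.38. Levels can be read across the arrays within a gene but not between genes, since probes differ; LAMP3 and DRAM1 sit close to the dotted line in the negative control array and far to its right in the p53 array.

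The lysosome group held the 2 largest differences of the 44, with 2 of 6 genes called higher (33.3%), none called lower and a median of 0.49. Over all genes 5.22% were called higher, and over the brighter genes 7.70%. The 6 were chosen with earlier results known and include the textbook p53 target DRAM1, so their share is not a result about lysosomal genes. Among the 17 lysosomal proteins described below, 2 were called higher and 1 lower, with a median of 0.00. LAMP3, a lysosomal membrane protein gene of restricted tissue expression, had 12.20 in the p53 array, against 7.64 in the control array, the highest difference of the 44 at 4.56 (23.6-fold) and the rank 8 of 18417 genes. DRAM1 had 10.49 in the p53 array, against 7.57 in the control array, a 7.56-fold difference that ranked 71. Both control values lay just above the median of all probe sets and above the highest marker of absent cell types, 7.26. Detection calls were not used here, so the exact folds of LAMP3 and DRAM1 rest on a dim control signal.

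Paralogues of these 2 genes did not share the size of the difference. LAMP1, an abundant lysosomal membrane glycoprotein gene, had 10.83 in the p53 array, against 10.07 in the control array, a difference of 0.76. LAMP2, whose product is needed for fusion and for chaperone-mediated autophagy, differed by -0.03. DRAM2 had 9.62 in the p53 array, against 10.13 in the control array (-0.51). TFEB, the transcription factor of lysosomal genes, differed by 0.22, and its control value of 7.38 was at the level of the median probe set. Among the LAMP and DRAM genes of the 44, then, 1 gene of each family was far higher in the p53 array and the others were within 2-fold.

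The sequences upstream of 2 genes of this group are shown because the lysosome group held the largest differences and because TFEB and p53 each bind a known DNA motif. They come from RefSeq on GRCh38.p14, run 5′ to 3′ on the gene's strand, and end at the base before the annotated transcript start. DRAM1 is at chr12:101877330-101877579 on the plus strand and LAMP1 is at chr13:113296989-113297238 on the plus strand. Capitals mark CACGTG, the E-box core that TFEB can bind.
DRAM1: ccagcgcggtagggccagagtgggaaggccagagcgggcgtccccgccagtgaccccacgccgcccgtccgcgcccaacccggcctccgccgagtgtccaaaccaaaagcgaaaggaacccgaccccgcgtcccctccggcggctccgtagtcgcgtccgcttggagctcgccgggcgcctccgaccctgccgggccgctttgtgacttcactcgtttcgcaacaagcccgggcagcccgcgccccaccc
LAMP1: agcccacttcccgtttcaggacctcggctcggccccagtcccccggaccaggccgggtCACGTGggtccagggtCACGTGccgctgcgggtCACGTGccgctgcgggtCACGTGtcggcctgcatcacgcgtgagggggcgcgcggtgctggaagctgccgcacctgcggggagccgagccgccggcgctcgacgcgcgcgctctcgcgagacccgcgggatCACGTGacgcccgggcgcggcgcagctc

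The LAMP1 window held 5 copies of CACGTG, and it was the 1 window among 35116 of the same length with at least 5. That cutoff was taken from the LAMP1 count itself, and binding of TFEB was not tested. One of the 5 lay within the longer palindrome TCACGTGA, which 0.854% of all windows held. The DRAM1 window held neither motif and no match to the 10-letter p53 decamer consensus, the unit of which a p53 response element has a pair. Only exact matches were searched, so a site that departs from the consensus by 1 letter would be missed. That no match was found says nothing of p53 binding in this window or elsewhere. The upstream table gave 47 windows for 37 of the 44 genes. Those not listed were ATG4D, BNIP3L, LAMP2, LAMP3, MAP1LC3A, RB1CC1 and UVRAG.

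CACGTG, which reads the same on both strands, stood in 4 of the 47 windows (8.51%), against 6.34% of all 35116 windows. Besides LAMP1 the genes were ATG3, ATG14 and BNIP3. A single p53 decamer, searched on both strands, stood in 1 of the 47 windows (2.13%), that of GABARAPL1, against 5.57% of all windows. A pair of exact decamers with a spacer of up to 13 bases stood in none of the 47 and in 9 of all windows (0.0256%). At so low a share, finding none among 47 does not tell whether these genes have p53 sites. The matches are shown with flanks so that their surroundings can be read, the motif in capitals.
ATG3 (chr3:112561963-112561992, minus strand): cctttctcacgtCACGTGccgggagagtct
ATG14 (chr14:55411834-55411863, minus strand): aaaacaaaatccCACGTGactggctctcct
BNIP3 (chr10:131982040-131982069, minus strand): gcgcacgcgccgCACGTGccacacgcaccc
GABARAPL1 (chr12:10212633-10212662, plus strand): agggggaataAAACATGTTTaaatcttttt
Beside these letters stand the array values. ATG3 differed by -0.32, ATG14 by 0.12, BNIP3 by 0.02, GABARAPL1 by 0.15 and LAMP1 by 0.76, none of them past 2-fold. Since LAMP3 and ATG4D had no window in the table, no comparison of the letters with the size of the differences was made.

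The distribution of the 44 differences can be set against that of all genes. The lowest autophagy difference was -0.89, while all genes reached -3.01, and the highest was 4.56, while all genes reached 5.62. At a threshold of 1.5-fold, 7 autophagy genes were higher and 3 were lower, 15.9% and 6.82% of the 44. The background at that threshold was 9.40% higher and 10.1% lower over all genes, and 13.7% higher and 15.3% lower over the brighter genes. The genes added at 1.5-fold were LAMP1, ULK1, OPTN and WIPI2 on the higher side and ATG12, ATG4C and PIK3R4 on the lower side. At 3-fold, 2 autophagy genes were higher, LAMP3 and DRAM1, and none was lower. The background there was 2.47% higher and 0.956% lower over all genes, and 3.59% higher and 1.51% lower over the brighter genes.

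**Figure D3:**
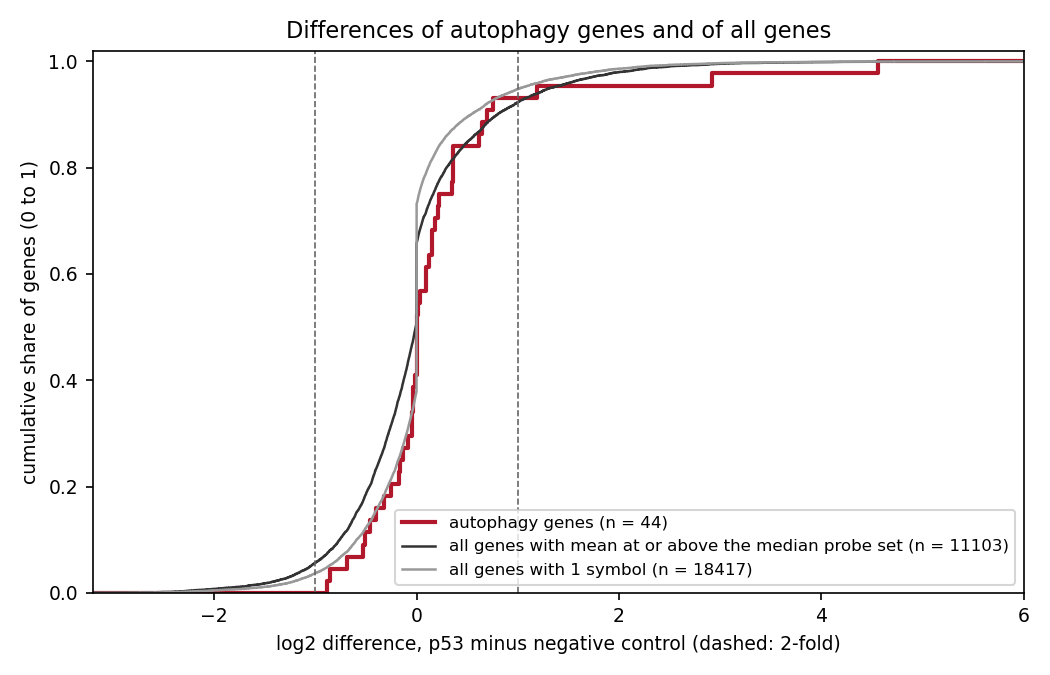
Cumulative share of genes (vertical axis, 0 to 1) by log2 difference (p53 minus negative control) for the 44 autophagy genes (red), for 11103 genes with a mean intensity at or above the median probe set (black) and for all 18417 genes (grey). No autophagy gene lies left of the lower 2-fold line, and the step of the grey curve at 0 is made of genes with equal values in both arrays.

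Other genes of the pathway, in 8 lists that share no gene with the 44, were counted in the same way. Of the 91 measured, 9 were called higher (9.89%) and 2 were called lower (2.20%), beside the background of 5.22% and 3.70% over all genes. These genes were about as bright as the 44, with a median intensity of 9.52, and over the 11103 brighter genes the background was 7.70% and 5.67%. Their median difference was 0.02. The higher genes were scattered over the lists, and no list had more than 2.

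Among 10 further genes of initiation and lipid signalling, ZFYVE1 was the 1 gene past 2-fold. It encodes DFCP1, which marks the membrane where autophagosomes form, and had 10.60 in the p53 array, against 8.90 in the control array, a 3.26-fold difference. Of 3 further ATG8 genes and ATG8-binding factors, TP53INP1, a known p53 target whose product binds ATG8 proteins, had 12.19 in the p53 array, against 8.07 in the control array (17.3-fold). Its paralogue TP53INP2 differed by 0.17. In this pair 1 paralogue was far higher and the other was not. That did not hold for every pair, since both AMPK beta subunit genes, described below, were called higher, PRKAB2 at the threshold.

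Of 14 further receptor genes measured, 2 were past 2-fold, both higher in the p53 array. CALCOCO1, a receptor for the endoplasmic reticulum and Golgi, had 10.88 in the p53 array, against 9.17 in the control array (3.27-fold). NCOA4, which brings ferritin to the autophagosome, had 12.06 in the p53 array, against 10.61 in the control array (2.74-fold). None of the 6 receptor genes above reached 2-fold. None of the 14 genes of vesicle fusion was past 2-fold. Their outermost values were 0.54 for TECPR2 and -0.53 for EPG5, a tethering factor.

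Among 17 lysosomal proteins 2 were called higher and 1 was called lower. The acid glucosidase gene GAA had 9.48 in the p53 array, against 8.03 in the control array (2.74-fold). SCARB2, a lysosomal membrane protein and enzyme carrier, stood at the threshold, with 10.58 in the p53 array, against 9.58 in the control array, and it fell under 2-fold, to 0.97, with an offset of 32 added before the logarithm. The galactosidase gene GLA had 8.44 in the p53 array, against 9.56 in the control array, a 2.18-fold lower level. The lysosomal enzymes thus did not share a direction, and the median of the list was 0.00.

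Of 16 genes of the V-ATPase, the proton pump that acidifies the lysosome, 11 differed by more than 0 and 5 by less, with a median of 0.15. Over the 11103 brighter genes 3807 differed by more than 0 and 5624 by less, with a median of -0.01. The accessory subunit gene ATP6AP2 had 12.27 in the p53 array, against 10.93 in the control array (2.53-fold) and was the 1 member past 2-fold. The 3 relatives of TFEB were within 2-fold, with MITF at 0.11 and TFEC at 0.29, both of which lay below the median probe set in both arrays.

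AMPK is the energy sensor that switches ULK1 on, and mTORC1 the growth kinase that switches it off. Of 14 genes of these complexes and their regulators, 2 were called higher and 1 was called lower. The AMPK beta subunit genes were the higher ones, PRKAB1 with 11.93 in the p53 array, against 10.48 in the control array (2.73-fold), and PRKAB2 with 10.17 in the p53 array, against 9.16 in the control array, just past 2-fold. The catalytic subunit gene PRKAA2 had 7.45 in the p53 array, against 8.47 in the control array (2.03-fold lower). The calls of PRKAB2 and PRKAA2 are at the threshold: PRKAB2 was at 0.96 with the offset, and PRKAA2 was between -1.02 and -0.90 over the alternatives, under 2-fold in 3 of 5.

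**Figure D4:**
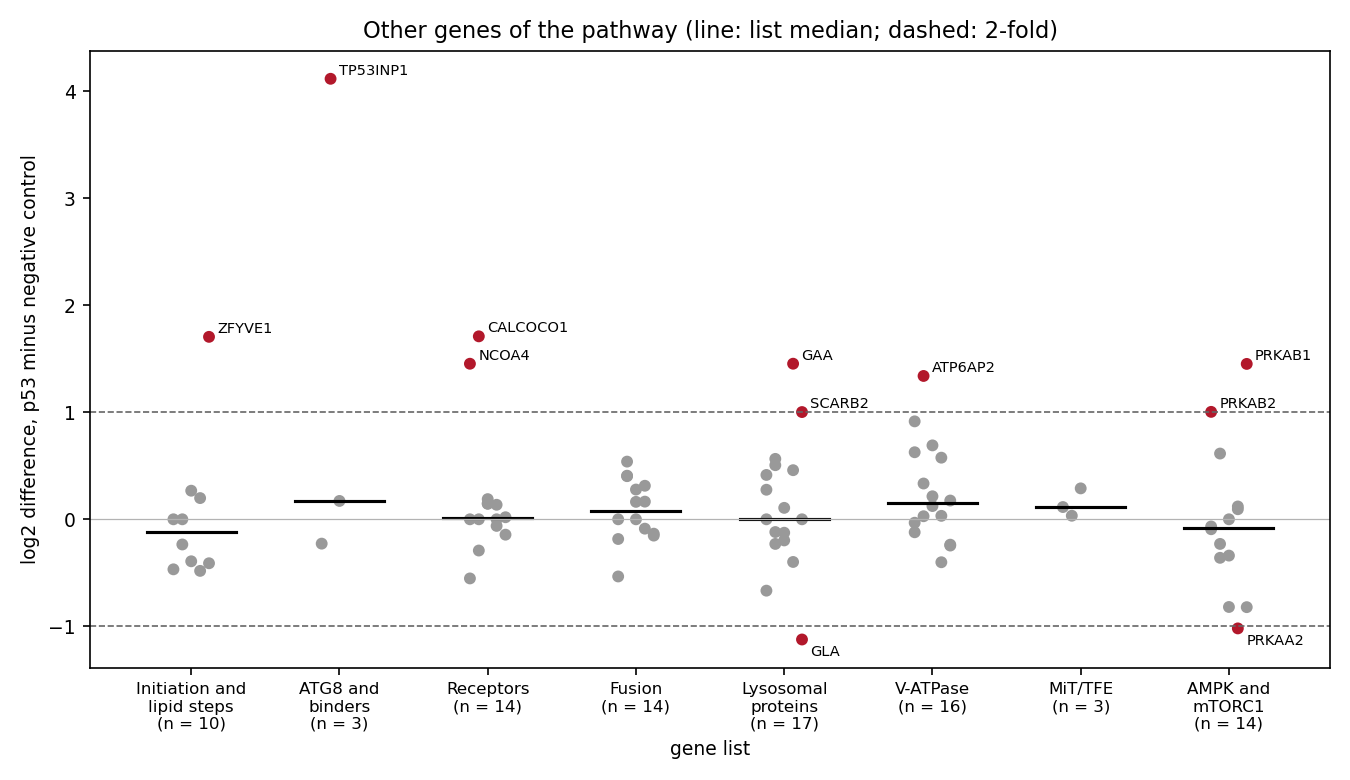
Log2 difference (p53 minus negative control, vertical axis) of each of 91 other genes of the pathway in 8 lists; points are genes, black lines are list medians, dashed lines mark 2-fold and red points lie past it. TP53INP1 (4.11) stands far above all others, and GLA (-1.12) and PRKAA2 (-1.02) are the points below the lower line.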

How the data were processed

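RNA was measured on 1 p53 and 1 negative control array. The deposited values are log2 intensities made by the authors with RMA, per the submitters' processing notes; the labels name no software, version or build. That the scale is log2 follows from the range of the values (1.48 to 14.68 in the p53 array). The sorted values of the arrays differ by at most 0.192, so a global shift in RNA would not show. Of 33297 probe sets, 35.9% are equal in both arrays. Gene names came from GEO's platform annotation, with symbols updated to RefSeq: 19460 had 1 symbol, 1754 several and 12083 none, and only the first entered the gene counts. For a gene with several, the brightest was taken. No filter was applied. A difference of at least 2-fold was called, without a test, since the number of arrays limits precision. The members and lists were chosen with earlier results of these data known. All members were reported, both values being given for those past 2-fold and for the 2 with the largest absolute difference per step; of the other lists, genes past 2-fold or else the 2 outermost were named. How many 2-fold calls variation between cultures would give was not tested, since each group has 1 array. Promoters are RefSeq windows, cut to the 250 bases before the start. Alternatives are in the closing section. Python 3.11.15, numpy 2.4.6, pandas 2.3.3, statsmodels 0.14.6 and matplotlib 3.10.9 were used.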

Additional observations from a re-analysis of the deposited data

Results flagged for a closer look

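A probe set left out of the gene counts, because 2 symbols share it (CCPG1 and the read-through gene DNAAF4-CCPG1), read 8.88 in the p53 array, against 7.59 in the control array, a difference of 1.29. CCPG1 encodes a receptor for autophagy of the endoplasmic reticulum. The signal cannot be assigned to 1 of the 2 genes.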

How the results depend on the processing

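The counts of 3 higher and 0 lower members were the same with the mean over probe sets, with either filter on low values, with centring, with removal of a lowess trend (span 0.3), with quantile normalization, with an offset of 32, without equal values, and with MAP1LC3B read from its shared probe set, an alternative chosen after seeing the data. Several of these settings could not change the counts. Centring subtracts a median of 0.00, and LAMP3, DRAM1 and ATG4D have 1 probe set each. These 3 genes were at or above the median probe set in both arrays, so the filters kept them. Leaving out equal values removes only differences of 0. Quantile normalization had little to change, since the sorted values of the arrays already differed by at most 0.192. The shared MAP1LC3B probe set differed by 0.04, far under 2-fold. No p-value exists at any setting, since no test could be run. At 1.5-fold the counts were 7 higher and 3 lower, and at 3-fold 2 higher and 0 lower, where the background over all genes was 2.47% higher and 0.956% lower. The median difference of the members lay between 0.00 and 0.07 over the alternatives. That of the background genes lay between -0.07 and 0.00, the lowest being without equal values. LAMP3 ran from 4.35 to 4.66, DRAM1 from 2.73 to 2.99 and ATG4D from 1.14 to 1.28. No value past 2-fold changed sign. No paired analysis was possible because each group has 1 array.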
